A study of Mus musculus with 18 samples.

Results

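The protein components of the cytosolic ribosome are encoded by a single gene each in most cases. The mRNAs of these genes were followed here through 3 maturation stages of mouse splenic natural killer (NK) cells. Wild-type (WT) cells were compared with cells after induced deletion of the gene of the transcription factor Eomes. Members were the protein-coding genes whose symbol starts with Rpl or Rps and a digit, together with Rplp0, Rplp1, Rplp2 and Rpsa, and without the 10 kinase genes of the Rps6k type. This gave 92 of the 41388 genes listed: 46 genes of the large subunit, 31 of the small subunit, 8 paralogs, 6 genes with a pseudogene symbol that are annotated as protein-coding, and Rps19bp1, which encodes a binding partner and is no ribosomal protein. The 77 large and small subunit genes are called core genes below. A filter on low counts left 86 members to be tested, among them all 77 core genes. The 6 members that did not pass it were Rpl10l, Rpl36-ps4, Rpl36a-ps1, Rpl39l, Rpl3l and Rps12-ps3.

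RNA was sequenced in 18 libraries, 3 for each of 6 groups, from pooled spleens of C57BL/6 mice of 8 to 12 weeks. KO cells came from tamoxifen-treated mice that carried floxed Eomes alleles (Eomesfl/fl), the Cre-dependent reporter Rosa26YFPLSL and the inducible recombinase Ncr1-iCreERT2 (KI/WT), which is expressed from the gene of the NK receptor Ncr1. The other genotype was WT, with nothing further given. Surface proteins defined the sorted stages: CD27+CD11b- cells are called stage II, cells positive for both proteins (CD27+CD11b+) are called stage III, and CD27-CD11b+ cells are called stage IV. The treatment lasted 3 days and the work was done in 3 experiments, but neither the mice per pool nor the experiment of each library is given, and the treatment text is the same for KO and WT samples, so whether WT mice received tamoxifen is uncertain. Where they did not, its effect and that of the deletion cannot be told apart. Since separate pools are not stated for each replicate number, p-values measure the spread between these libraries, part of which may be technical.

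Each ribosome carries one copy of most of these proteins, and cells adjust their production together, both by transcription and by translation. Ribosomal protein mRNAs of mammals typically begin at a cytosine within a run of pyrimidines, the 5′ terminal oligopyrimidine (TOP) tract, through which mTOR signalling and the RNA-binding protein LARP1 control their translation. MYC promotes the transcription of ribosome biogenesis genes. In NK cells, CD27+CD11b- cells are known to proliferate more than CD27-CD11b+ cells, the mature end of the series.

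The start sites of 8 members are shown, some with a long run of pyrimidines and some with a short one. They were chosen with their fold changes known, since their mRNAs behaved differently between stages. Each line gives 15 bases before and 15 bases from the annotated start site, 5′ to 3′ on the coding strand, from the RefSeq promoter table on GRCm38.p6. The longest run of C and T that touched the 5 bases on either side of the start is in capitals. Rpl15, Rps18 and Rps15a fell from stage II to stage IV in WT cells and have a run of at least 8 bases:
Rpl15, chr14:18270972-18271001, minus strand: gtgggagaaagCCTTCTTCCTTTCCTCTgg
Rps18, chr17:33955651-33955680, minus strand: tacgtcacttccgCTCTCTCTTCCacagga
Rps15a, chr7:118116133-118116162, minus strand: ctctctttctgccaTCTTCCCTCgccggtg
Rpl35 had the largest KO against WT difference at stage III among the members called there:
Rpl35, chr2:39005117-39005146, minus strand: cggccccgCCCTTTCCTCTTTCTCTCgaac
Rps27 has such a run and was not lower at stage IV:
Rps27, chr3:90213634-90213663, minus strand: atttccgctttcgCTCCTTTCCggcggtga
Rplp0 and Rps19 fell with a run of 4 bases near the annotated start. Rpl10, with a run of 1, did not pass the test and was chosen after its values were seen:
Rplp0, chr5:115559452-115559481, plus strand: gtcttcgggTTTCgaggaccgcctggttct
Rps19, chr7:24884577-24884606, plus strand: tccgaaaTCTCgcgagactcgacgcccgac
Rpl10, chrX:74270801-74270830, plus strand: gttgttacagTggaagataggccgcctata

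RefSeq promoters, 250 bases before to 50 bases after the start, were found for 66 members, 57 of them core genes. A pyrimidine run of at least 8 bases touched the 5 bases on either side of the start in 19 of the 57, or 33.3%, against 9.3% of all 27025 promoters. Such a run could end before the start or begin after its first base, so it need not be a TOP tract. Both strands were also searched for 5 motifs. CCGGAAG, a site of ETS factors, was present in 23 of the 57 promoters (40.4%, against 9.12% of all), and AAGATGGCG, a YY1 site, in 3 (5.3% against 1.49%). The MYC-type E-box CACGTG was found in 5 (8.8% against 7.24%) and TATAAA in 5 (8.8% against 14.16%). GGTGTGA, the T-box core that Eomes-type factors recognise, was found in 0 of the 57, against 3.96% of all promoters. At a rate of 3.96%, 57 promoters would hold few matches, so the 0 does not show a depletion. These are matches of letters in a window and not measured binding. Only the first listed start of each gene was used, and the starts used in these cells were not measured. A short run near the annotated start therefore does not show that the mRNA lacks a TOP tract.

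Total counts ran from 18684350 to 28365837 per library. Eomes, the deleted gene, was lower in every KO library (55.2 to 160 CPM, counts scaled to a common library total) than in every WT library (191 to 287). Its mean in KO against WT libraries was 63.1 against 205 CPM at stage II, 150 against 272 at stage III and 107 against 255 at stage IV. Eomes mRNA was thus reduced and not absent, and the reduction differed between stages. The 10 NK markers summed to 17100 to 44740 CPM in all libraries. Ncr1 was at 3600 to 4076 CPM in replicates 2 and 3 of each WT stage. In replicate 1 of each WT stage Ncr1 was at 2111 to 2376 CPM, and in the KO libraries at 1402 to 2353 CPM. KO stage III replicates 1 and 3 stood apart, with counts for 14824 and 16536 genes against 21454 in replicate 2. WT stage II replicate 1 had counts for 29859 genes, against 17957 and 18816 in the other two of its group, and KO stage IV replicate 3 for 27912, against 18228 and 20465. Xist, which is expressed in female cells, was at 0 to 0.64 CPM in replicates 2 and 3 of each WT stage and at 5.66 to 45.2 CPM in the other 12 libraries, so WT replicates 2 and 3 differed in Xist from WT replicate 1 of the same stage as well as from every KO library. The part of these differences in Xist and Ncr1 in the KO against WT results was not tested.

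Ribosomal protein genes took 1.44% to 3.61% of all counts, and the stage IV libraries were lowest. Their share was 2.75%, 3.00% and 3.03% in the 3 WT stage II libraries and 2.51%, 2.59% and 2.36% in those of KO stage II. WT stage III libraries held 2.52%, 2.35% and 2.39%, and KO stage III libraries 3.61%, 2.53% and 2.23%. WT stage IV libraries held 1.68%, 1.55% and 1.44%, and KO stage IV libraries 1.98%, 1.59% and 1.59%. All 6 stage IV libraries lay below all 12 libraries of stages II and III. WT stage II lay above KO stage II without overlap, WT stage III overlapped both KO groups before stage IV, and WT and KO stage IV overlapped each other. KO stage III held both the highest of the 12 libraries of stages II and III, its replicate 1, and the lowest, its replicate 3. The ratio of large to small subunit counts was 1.23 to 1.34 over all 18 libraries, so both subunits moved together within this range.

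**Figure D1:**
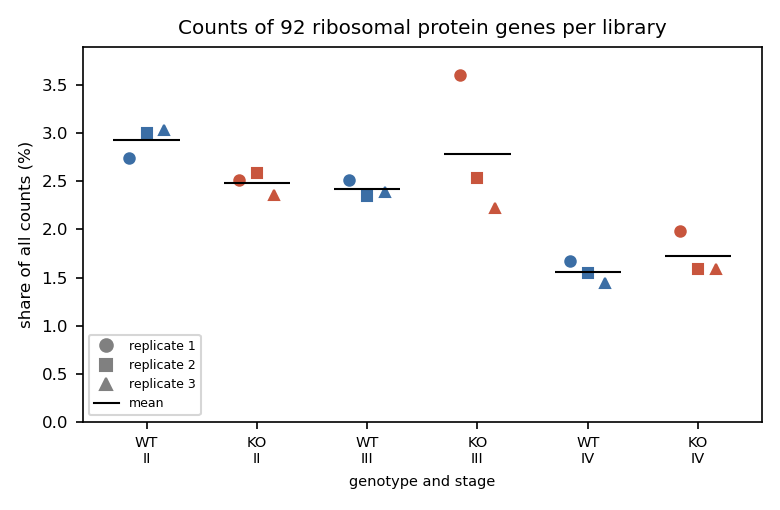
Share of all counts in each library that fell on the 92 members (y axis, %), by genotype and stage (x axis); points are libraries, with a symbol per replicate, and lines are means of 3. The 6 stage IV points sit between 1.44% and 1.98%, below the 12 others, and KO stage III replicate 1 is the highest at 3.61%.

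Levels per length, given as the deposited RPKM (counts per kilobase of listed length, scaled to library size) averaged over 18 libraries, differed widely between proteins that are needed in equal numbers. Rpl32 was highest at 2307 RPKM, and Rpl4 and Rpl8 stood at 1822 and 1610. The lowest core gene was Rpl23a at 0.713, and Rps6, the target of S6 kinases, stood at 3.02. Ribosomal protein genes have many processed pseudogenes, so each member's longest coding transcript in GENCODE M21 was cut into overlapping stretches of 50 bases and each was looked up in the transcripts of all other genes on both strands. Of the stretches, 85.7% were shared in Rpl23a and 84.6% in Rps6, against 26.8% in Rpl32, 16.5% in Rpl4 and 6.49% in Rpl8. The median level was 149 RPKM for the 7 core genes with under 10% shared stretches, 83.3 for the 34 with 10% to under 50%, and 27.0 for the 36 with 50% or more. Across the 77 core genes Spearman's rho between level and shared percentage was -0.417, given as a description, since all genes come from the same libraries. The sources used here do not say how the authors' counting treated reads that map to several places. The level of a gene with near-identical copies is therefore uncertain. Genes with the symbol of a ribosomal protein pseudogene (-ps) held counts equal to 0.47% to 0.70% of those of the members. This set was picked by symbol and includes the 6 protein-coding members with such a symbol. Pseudogenes under other symbols were not counted, so the share of reads on all such pseudogenes is not known.

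**Figure D2:**
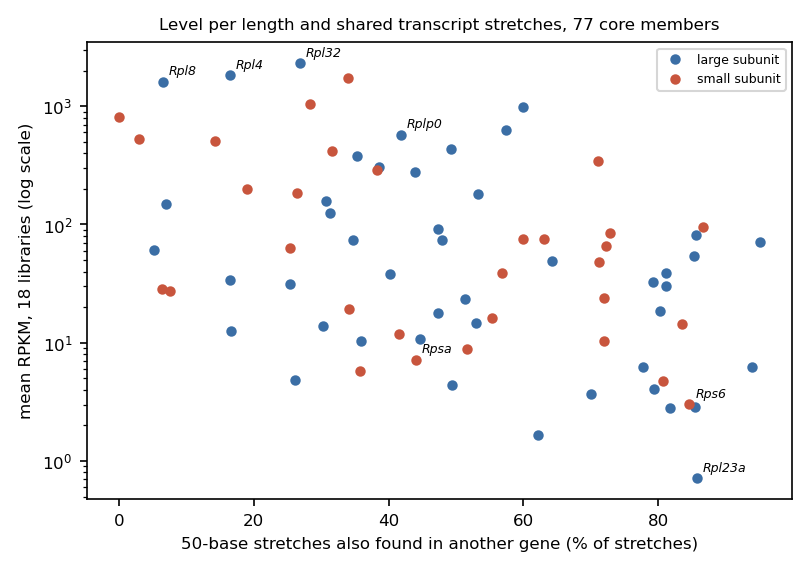
Mean RPKM over 18 libraries (y axis, log scale) against the percentage of 50-base transcript stretches also found in another gene (x axis); each point is 1 of 77 core genes, coloured by subunit. Levels run from 27.2 to 1610 RPKM under 10% shared stretches, from 4.38 to 2307 at 10% to under 50% and from 0.713 to 989.5 at 50% or more; the lowest gene, Rpl23a at 0.713 RPKM, lies at 85.7% shared stretches.

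Among the comparisons made, that between stage IV and stage II in WT cells had the most members called. Ribosomal protein mRNAs were lower in stage IV: 57 of the 86 tested members fell and none rose at an adjusted p under 0.05 (edgeR's quasi-likelihood test, Benjamini-Hochberg adjustment over 14156 genes), where 9.82% of all tested genes were called lower. The median log2 fold change of the members was -0.74, against -0.02 for all genes. Of the large subunit genes 33 of 46 fell (median -0.73), and of the small subunit genes 22 of 31 (median -0.84). In 70 of the 86 members all 3 stage IV libraries were below all 3 stage II libraries, which 22.3% of all tested genes showed. In bulk samples, fewer cells of a type and less RNA per cell cannot be told apart.

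Rplp0, Rplp1 and Rplp2 form the stalk of the large subunit that recruits the elongation factors. Rplp0 (ENSMUSG00000067274, chromosome 5, 115559467 to 115563727) had 949, 1313 and 1319 CPM (scaled by edgeR's trimmed mean of M values, as are all CPM of members below) in the WT stage II libraries. In the WT stage IV libraries it had 588, 593 and 517 CPM, all below every stage II library. It fell 2.11-fold (log2 fold change -1.08, SE 0.16, adjusted p = 0.000195). Rplp1 fell by 1.04 on the log2 scale (SE 0.21, adjusted p = 0.00265) and Rplp2 by 0.85 (SE 0.18, adjusted p = 0.00368), so all 3 stalk genes fell.

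The 4 largest falls were of small subunit genes. Rps20 (ENSMUSG00000028234, chromosome 4, 3831334 to 3835665), a protein of the subunit's head, had 129, 160 and 164 CPM in WT stage II and 65.2, 61.5 and 61.8 in WT stage IV. The groups were far apart relative to their spread, and the fall was 2.40-fold (log2 -1.26, SE 0.20, adjusted p = 0.00033). Rps15a fell by 1.17 (SE 0.22, adjusted p = 0.00152) and Rps18, another protein of the head, by 1.13 (SE 0.17, adjusted p = 0.000218). Rps19, a gene mutated in Diamond-Blackfan anaemia, had 323, 319 and 311 CPM in WT stage II and 179, 133 and 135 in WT stage IV, a fall of 1.09 (SE 0.20, adjusted p = 0.00101). Rpsa, also known as the laminin receptor, fell by 1.03 (SE 0.25, adjusted p = 0.00979). Without WT stage II replicate 2 or 3 or WT stage IV replicate 2 it was no longer called.

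The smallest falls among called members were those of Rpl27 (-0.53, SE 0.15, adjusted p = 0.0223), Rpl36al (-0.58, SE 0.17, adjusted p = 0.0248), Rps28 (-0.61, SE 0.15, adjusted p = 0.0113), Rpl34 (-0.63, SE 0.16, adjusted p = 0.0138) and Rpl22l1 (-0.64, SE 0.20, adjusted p = 0.0354). Each of these 5 lost its call when 1 of several libraries was left out. The members' range ended with Rps27 (ENSMUSG00000090733, chromosome 3, 90212725 to 90213615), named after its values were seen. It had 18.2, 17.8 and 17.7 CPM in WT stage II and 22.1, 18.7 and 19.9 in WT stage IV, so every stage IV library was above every stage II library. The log2 fold change was 0.17 (SE 0.23, adjusted p = 0.689), within its error.

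Rpl22 is an RNA-binding ribosomal protein known for its role in lymphocyte development, and Rpl22l1 is its paralog. Rpl22 (ENSMUSG00000028936, chromosome 4, 152325742 to 152334071) had 204, 245 and 238 CPM in WT stage II and 119, 117 and 101 in WT stage IV. It fell 2.04-fold (log2 -1.03, SE 0.19, adjusted p = 0.0014), and its paralog fell as given above. The other tested paralogs, Rps27l, Rpl7l1 and Rps27rt, had log2 fold changes of -0.28 (SE 0.34), -0.28 (SE 0.13) and -0.73 (SE 0.26), with adjusted p of 0.667, 0.175 and 0.0686. Rps27l varied among the WT libraries of each stage, for example 78.3, 54.2 and 45.4 CPM in stage II. Rps6 had a log2 fold change of -0.59 (SE 0.29, adjusted p = 0.198) at only 2.38 to 6.62 CPM over these 6 libraries.

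**Figure D3:**
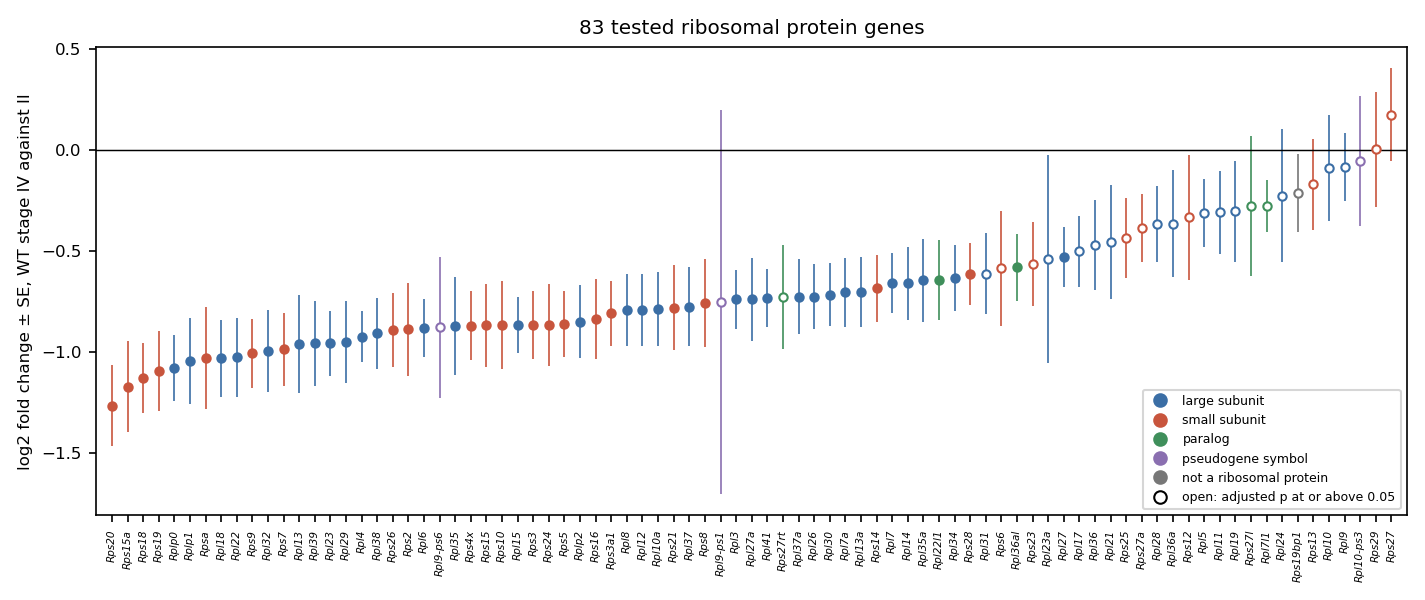
Log2 fold change of WT stage IV against stage II (y axis) with its standard error (bars) for 83 of the tested members (x axis, sorted), 3 libraries per group; filled points passed an adjusted p under 0.05 and colours give the class of gene. Values run from -1.26 in Rps20 to 0.17 in Rps27, and the 55 filled points are all below 0. The other 3 tested members, 2 of them called, are not drawn.

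Shared transcript stretches and the fitted change moved together. All 7 core genes with under 10% shared stretches fell, with a median of -0.87, against 28 of 34 (median -0.84) in the middle class and 20 of 36 (median -0.63) at 50% or more. Over the 77 core genes Spearman's rho was 0.391 between the log2 fold change and the shared percentage, and -0.463 between the log2 fold change and the RPKM, given as descriptions. Among core genes with a RefSeq promoter, 16 of 19 with a pyrimidine run of at least 8 bases near the start fell (median -0.87). Of those with a shorter run, 26 of 38 fell (median -0.75). The ranges overlapped, from -1.17 to 0.17 with the longer run and from -1.09 to -0.09 with the shorter one. Runs were read near annotated starts, so some genes may be in the wrong class.

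Other parts of the translation machinery were counted from lists chosen by role. Of 12 elongation factors and other TOP mRNAs, 7 fell and none rose (median -0.52), led by the elongation factor subunits Eef1g (log2 -1.01, SE 0.14), Eef1a1 (-0.86, SE 0.13) and Eef1b2 (-1.004, SE 0.16), with adjusted p of 0.000116, 0.000255 and 0.000307. Of 32 ribosome assembly genes 12 fell and none rose, led by Rcl1 (-1.35, SE 0.20, adjusted p = 0.000185), Npm1, the nucleolar chaperone nucleophosmin (-0.82, SE 0.15, adjusted p = 0.00127), and Mrto4 (-0.82, SE 0.16, adjusted p = 0.0017). Of 30 initiation factors 7 fell and none rose (median -0.21), led by the eIF3 subunits Eif3e, Eif3m and Eif3h at -0.64, -0.56 and -0.50. Of 20 tested genes of the MYC and mTOR list, Myc fell by 1.41 (SE 0.45, adjusted p = 0.0455) and Larp1 by 0.50 (SE 0.16, adjusted p = 0.0413). The MYC antagonists Mxi1 and Mxd4 rose by 1.45 (SE 0.45, adjusted p = 0.0362) and 0.53 (SE 0.11, adjusted p = 0.00251).

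Other housekeeping lists had medians closer to 0. Of 76 mitochondrial ribosomal protein genes 6 fell (median -0.17), of 79 nuclear genes of the respiratory chain 4 (median -0.15), and of 48 proteasome genes 5 (median -0.15). Of 882 other protein-coding genes no longer than the median listed length of the members, 107 fell and 38 rose (median -0.10). These values stand beside those of the members as descriptions, and no test compared the lists.

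**Figure D4:**
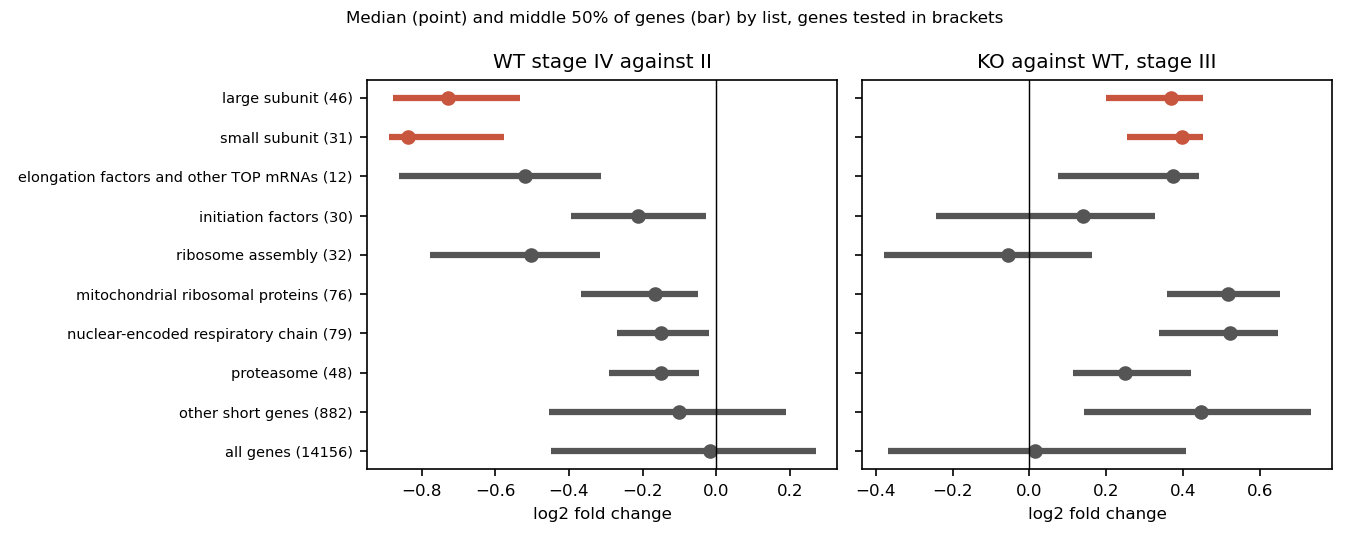
Median (point) and middle 50% of genes (bar) of the log2 fold change (x axis) for the 2 ribosomal subunits, other lists and all 14156 genes (y axis, tested genes in brackets), for WT stage IV against II on the left and KO against WT at stage III on the right. On the left the subunits have medians of -0.73 and -0.84 and the other lists lie closer to 0; on the right the mitochondrial ribosomal protein and respiratory chain genes, both at 0.52, exceed the subunits at 0.37 and 0.40.

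Markers of other cells moved with stage as well. The 11 B cell markers summed to 1464 to 1704 CPM in WT stage II, 711 to 776 in WT stage III and 238 to 357 in WT stage IV. Of single B cell genes, Ighm, the IgM heavy chain, was at 943 to 1018 CPM in WT stage II and 224 to 316 in WT stage IV, Cd74, the invariant chain of MHC class II, at 401 to 558 and 7.03 to 30.6, and Cd79b at 10.4 to 14.1 and 2.59 to 4.06. Ms4a1 and Cd79a were each at no more than 2.05 CPM in any library. The 12 T cell markers summed to 999 to 1396 CPM in WT stage II and 348 to 464 in WT stage IV. The part of such cells in the members' fall was not tested. Leaving out WT stage II replicate 2, WT stage II replicate 3 or WT stage IV replicate 3 lowered the count of 57 to 33, 32 and 32. Without KO stage III replicates 1 and 3, which share in the estimate of the spread, it was 64.

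Between neighbouring WT stages, edgeR called members from stage III to stage IV and not from stage II to stage III. In WT stage III against II, 0 of 86 members passed edgeR's test, where 2.97% of all genes did. At an unadjusted p under 0.05, 1 member was lower, against 7.04% of all genes, and the median was -0.20. The fold change was negative in 83 of 86 members, and in 19 all 3 stage III libraries lay below all of stage II, as in 13.4% of all genes. The 3 smallest unadjusted p-values were those of Rpl15, Rps20 and Rpl27, with log2 fold changes of -0.49 (SE 0.14, adjusted p = 0.0651), -0.41 (SE 0.20, adjusted p = 0.475) and -0.29 (SE 0.15, adjusted p = 0.507). Limma voom with quality weights, which lets libraries of larger spread count less, called 25 members lower, against 7.90% of all genes. DESeq2 called 1 and limma voom without weights called 0.

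In WT stage IV against III, 20 members fell and none rose, where 2.41% of all genes were called lower. The median was -0.55, the fold change was negative in 82 of 86, and in 64 the groups did not overlap, against 16.2% of all genes. Large and small subunits gave 10 of the 20 each. The largest falls were those of Rps15a (204, 193 and 188 CPM in stage III and 104, 104 and 95.0 in stage IV), Rps20, Rplp0, Rps18 and Rpl18, at log2 fold changes of -0.95, -0.86, -0.85, -0.83 and -0.81. The smallest called were those of Rpl41 (-0.55), Rps28 (-0.59), Rpl6 (-0.62), Rps3 (-0.68) and Rps9 (-0.69). Of the elongation list 4 of 12 fell as well, with Eef1g at -0.73, Eef1a1 at -0.67 and Eef1b2 at -0.74. With the preparation, that is the genotype together with the replicate number, as a block, the count was 36. The count ran from 1 to 42 when a library was left out: it was 1 to 5 without any WT stage III or stage IV library, 10 to 13 without WT stage II replicate 2 or 3, any KO stage II library or KO stage IV replicate 2, and 42 without KO stage III replicate 1.

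In KO cells stage IV was also lower than stage II. Here 15 members fell and none rose, where 8.76% of all genes were called lower, with a median of -0.40 against 0.03 for all genes. In 54 members the groups did not overlap, against 20.0% of all genes. Rps19 fell by 0.80 (SE 0.20, adjusted p = 0.00929), from 345, 361 and 372 CPM in KO stage II to 241, 198 and 181 in KO stage IV. Rps20 fell by 0.80 (SE 0.20), Rpl29 by 0.75 (SE 0.20), Rpl12, a neighbour of the stalk base, by 0.74 (SE 0.18) and Rps9 by 0.71 (SE 0.17). The smallest called falls were those of Rpl6 (-0.46), Rpl41 (-0.47), Rpl3 (-0.51), Rplp0 (-0.59) and Rps7 (-0.61). Rplp0 went from 937, 1023 and 932 CPM to 698, 612 and 615.

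All 15 of these members were among the 57 that fell in WT cells, which makes the whole KO list and 26.3% of the WT list. Over all genes, the overlap of 886 made 71.5% of the 1240 KO genes and 63.7% of the 1390 WT genes. The WT and KO libraries are separate, but 1 estimate of the spread served both comparisons. The B cell marker sum was lower here too, at 2006 to 2141 CPM in KO stage II and 171 to 230 in KO stage IV, and the T cell marker sum at 958 to 1255 and 295 to 352 CPM. Their part in the result was not tested. The count of 15 was 33 without KO stage III replicate 1, 29 without replicate 2 and 46 without replicates 1 and 3 together. It was 2 and 5 without KO stage IV replicates 3 and 2, and 6 to 9 without any KO stage II library, WT stage III replicate 2 or 3, or WT stage IV replicate 2 or 3.

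**Figure D5:**
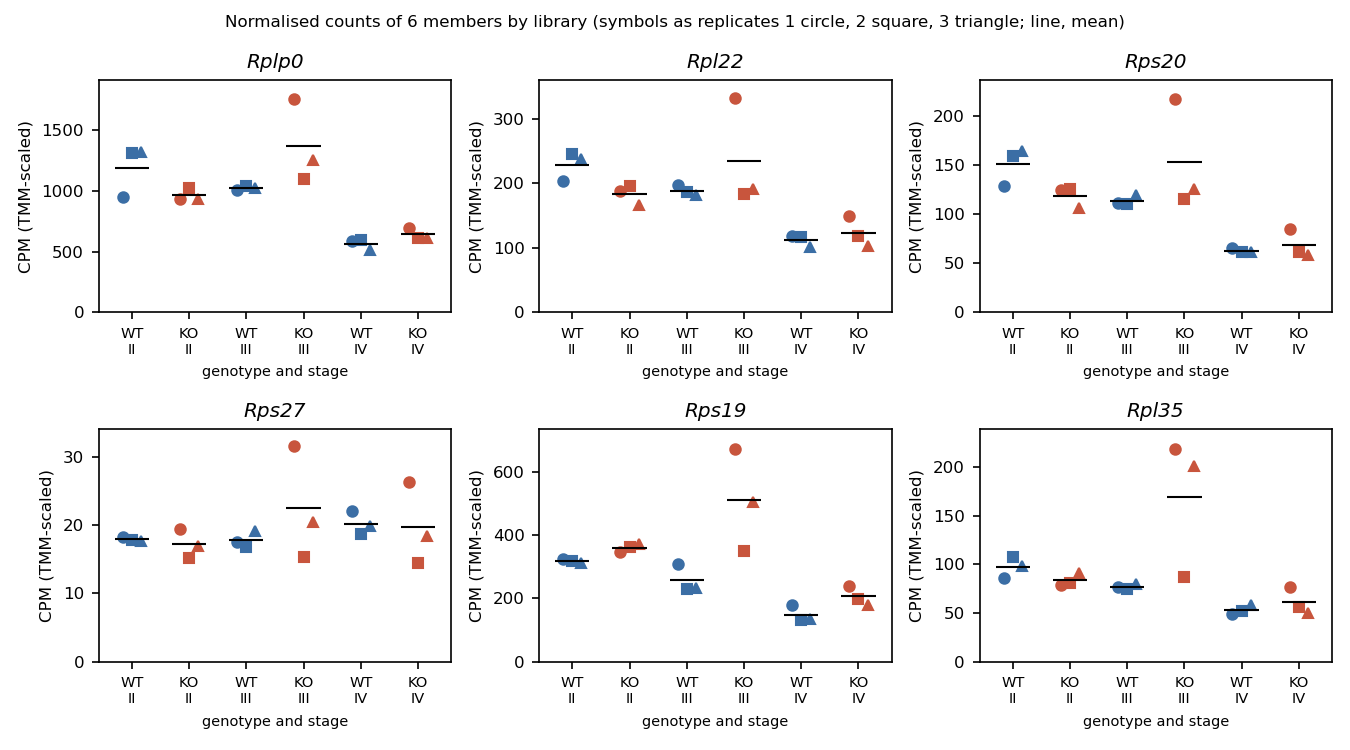
Normalised counts (CPM, y axes from 0) of 6 members in 18 libraries by genotype and stage (x axes); symbols are replicates and lines are means of 3. Rplp0, Rpl22, Rps20 and Rps19 are lowest in stage IV in both genotypes, Rps27 is not, and KO stage III replicate 1 is the highest library for each of the 6 genes.

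Whether the genes respond to Eomes deletion was read from KO against WT at each stage. At stage II 0 of 86 members passed edgeR's test, where 1.46% of all genes did. The median was -0.22 and 75 of 86 fold changes were negative. In 21 members all KO libraries lay below all WT libraries, against 8.45% of all genes, and 13 of these were small subunit genes. At an unadjusted p under 0.05, 3 members were lower, against 5.05% of all genes: Rps28 (-0.40, SE 0.15, adjusted p = 0.365), Rpl15 (-0.32, SE 0.14, adjusted p = 0.452) and Rps16 (-0.45, SE 0.19, adjusted p = 0.488). Rps16 had 11.3, 13.3 and 12.7 CPM in WT and 8.96, 9.21 and 9.06 in KO libraries, without overlap. Limma voom with quality weights called 20 members lower, against 3.73% of all genes, and DESeq2 and unweighted limma voom called 0. The B cell marker sum was 2006 to 2141 CPM in KO and 1464 to 1704 in WT libraries of this stage, and its part was not tested.

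At stage III, 10 members were higher in KO cells and none lower, where 5.16% of all genes were called higher, and the median was 0.40. Rpl35 (ENSMUSG00000062997, chromosome 2, 39001580 to 39005624), a protein at the exit of the nascent chain tunnel, had 76.4, 75.3 and 79.7 CPM in WT and 219, 86.7 and 201 in KO libraries. Replicates 1 and 3 were far above the WT libraries and replicate 2 was close to them. The log2 fold change was 1.13 (SE 0.24, adjusted p = 0.0149). Rps19 (ENSMUSG00000040952, chromosome 7, 24884371 to 24889806) had 310, 230 and 232 CPM in WT and 673, 352 and 506 in KO libraries, at 0.99 (SE 0.20, adjusted p = 0.01). Rps2 followed at 0.94 (SE 0.23), Rps25 at 0.80 (SE 0.20) and Rps19bp1 at 0.75 (SE 0.19). Also called were Rpl29 (0.72), Rpl10a (0.63), Rpl27 (0.58) and Rpl36al (0.57).

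These calls rested on KO stage III replicates 1 and 3, the libraries with the fewest detected genes. Their scaling factors were 0.883 and 0.783, against 1.018 in replicate 2 and 0.981 to 1.034 in WT stage III. A factor under 1 raises the scaled counts. Before this scaling, members took 2.23% of counts in KO replicate 3, below the 2.35% to 2.52% of the WT stage III libraries. In KO replicate 1 they took 3.61%, above them. Without both, 0 members passed and the median was 0.04. Without replicate 1 alone 0 passed, without replicate 3 alone 2, and without replicate 2 the count was 45. It was 0 to 1 without any WT stage III library and 4 to 6 without each of the remaining libraries, except 7 without WT stage II replicate 1 or KO stage IV replicate 3. Fitted on the 6 stage III libraries alone, 0 members passed. Other short or housekeeping genes moved in the same direction. Of 76 mitochondrial ribosomal protein genes 18 were called higher (median 0.52), of 79 respiratory chain genes 19 (median 0.52), of 48 proteasome genes 2 (median 0.25), and of 882 other short genes 124 (median 0.45), with 3 lower. The B cell marker sum was 908 to 1182 CPM in KO and 711 to 776 in WT libraries of stage III.

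At stage IV, 0 of 86 members passed edgeR's test, where 0.509% of all genes did, and the median was 0.13. At an unadjusted p under 0.05, 2 members were higher, against 3.39% of all genes. One of them was Rps19, at 0.47 (SE 0.20, adjusted p = 0.773), and Rpl10a, at 0.38 (SE 0.18, adjusted p = 0.908), did not reach that level. For Rps19, WT libraries had 179, 133 and 135 CPM and KO libraries 241, 198 and 181, without overlap. DESeq2 and limma voom called 0, and limma voom with quality weights 1.

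The KO effect was then compared between stages by interaction terms. For stage III minus stage II 0 members passed edgeR's test, where 0.0494% of all genes did. At an unadjusted p under 0.05, 52 of 86 were higher, against 7.74% of all genes, with a median of 0.62. Other lists moved in the same direction, so this was not particular to the members. At that level 36 of 79 respiratory chain genes (median 0.53) and 30 of 76 mitochondrial ribosomal protein genes (median 0.47) were higher. So were 222 of 882 other short genes (median 0.48) and 8 of 48 proteasome genes (median 0.26). Rpl35 (1.36, SE 0.34, adjusted p = 0.181), Rps2 (1.13, SE 0.32, adjusted p = 0.287) and Rps26 (0.88, SE 0.26, adjusted p = 0.302) had the smallest p-values. DESeq2 called 1, limma voom 0 and limma voom with quality weights 1. Without KO stage III replicates 1 and 3 the median was 0.26, and without replicate 2 edgeR called 40.

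For stage IV minus stage II 0 members passed, where 0.212% of all genes did, and 5 were higher at an unadjusted p under 0.05, against 4.97% of all genes. The median was 0.34, and this term compares no KO stage III library. The 3 smallest p-values were those of Rpl15 (0.47, SE 0.19, adjusted p = 0.574), Rpl10a (0.58, SE 0.25, adjusted p = 0.639) and Rps3a1 (0.50, SE 0.23, adjusted p = 0.668). DESeq2 and both forms of limma voom called 0. The smaller fall from stage II to IV in KO than in WT cells, with medians of -0.40 and -0.74, was thus not called for any single member.

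The stalk genes with Rpsa, Rps6 and Rpl22, and the 5 tested paralogs, were followed through every comparison. In WT stage IV against III, Rplp0 and Rpl22 were called (Rpl22 at -0.75, adjusted p = 0.0422), the other 4 core genes ranged from -0.83 in Rpsa to -0.07 in Rps6, and the paralogs ranged from -0.61 in Rps27rt to -0.13 in Rpl7l1. In KO stage IV against II, Rplp0 was the only one called, with a range of -0.63 in Rplp1 to -0.21 in Rps6 for the other core genes and of -0.51 in Rps27rt to -0.08 in Rpl22l1 for the paralogs. In WT stage III against II none was called, and values ran from -0.52 in Rps6 to -0.01 in Rps27l. Between genotypes these 6 core genes had log2 fold changes of -0.32 in Rpl22 to -0.12 in Rps6 at stage II and of 0.12 in Rplp1 to 0.25 in Rps6 at stage IV, none called. At stage III they ranged from 0.18 in Rps6 to 0.50 in Rplp1, none called, and of the paralogs Rpl36al was called and Rps27l had the largest value, 1.12 (SE 0.35, adjusted p = 0.0551). Rps27l had 83.5, 48.4 and 44.4 CPM in WT and 173, 63.1 and 147 in KO libraries, so KO replicate 2 lay within the WT range and replicates 1 and 3 above it. Without KO stage III replicates 1 and 3, the stage III values of Rplp1, Rplp2, Rpsa, Rpl22, Rpl7l1 and Rps27rt were below 0, at -0.18 to -0.025. Among paralogs the genotype difference was -0.28 in Rpl22l1 to 0.27 in Rps27l at stage II and 0.04 in Rpl7l1 to 0.37 in Rps27l at stage IV. The interaction terms of these 11 genes were between 0.10 in Rpl7l1 and 0.89 in Rps27rt for stage III minus II, and between 0.02 in Rpl7l1 and 0.57 in Rpl22l1 for stage IV minus II, none called.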

How the data were processed

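The authors made the counts with STAR 2.0.4, Subread and featureCounts 1.4.5, tools named per the submitters' processing notes. The sources used here do not give the genome build, the strand setting or the handling of reads with several positions. The deposited values are, per the file headers, a raw count, a CPM and an RPKM per gene. The deposited CPM and RPKM are rescaled from the count, so only the count was tested, and the deposited RPKM served for levels per length.

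Symbols were found in GENCODE M21 for 40254 of 41388 gene IDs, of which 40158 lay at an overlapping position, and positions are given on GRCm38. The members and lists were chosen with earlier results of these data known. Counts were filtered by edgeR's rule by group, which left 14156 genes. Scaling used TMM, edgeR's trimmed mean of M values, and counts were fitted with edgeR 4.0.16 (R 4.3.3) as 1 quasi-likelihood model with 6 group means over 18 libraries. The method was tested on simulated data of independent libraries. These held no deviant library and no effect shared by a replicate number, so that test does not cover either. P-values had a Benjamini-Hochberg adjustment over all tested genes, with a threshold of 0.05, and all adjusted p-values are edgeR's unless another tool is named. Standard errors are the log2 fold change divided by the root of the F statistic. Intervals of counting error were not used, since libraries set the error, and the counts do not separate PCR copies from molecules.

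Named in each comparison were the 5 largest and 5 smallest fold changes among called members, or the 3 smallest p-values where fewer than 3 were called. Rplp0, Rplp1, Rplp2, Rpsa, Rps6, Rpl22 and the paralogs are named in every comparison, for most of them as a range. From other lists at most 3 called genes of smallest p are named, besides the MYC and mTOR list, where all 4 are. Some genes that meet this rule are not reported here. Alternatives were 4 other scalings, no filter, DESeq2 1.42.0, limma 3.58.1 (voom, with and without quality weights), only the groups compared, 2 forms of block, and leaving out libraries.

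Libraries of the same replicate number deviated together from their group means between WT stages III and II (correlations of 0.478, 0.258 and 0.261 for numbers 1 to 3) and WT stages IV and III (0.374, 0.171 and 0.193). All were over 0.1, so libraries of a number may be paired between these stages. The main fit held no pairing, which entered only through the blocks among the alternatives. WT stages IV and II gave 0.223, 0.084 and 0.163, and the other pairs of groups also had values under 0.1.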

Additional observations from a re-analysis of the deposited data

How the results depend on the processing

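Counts of members called are given as edgeR's count and then the count under each alternative that moved it by over 1.5 times. For most alternatives and fits with libraries left out, here and above, the share of all genes called is not given. Such counts show how far the number of members called moved. They do not show whether members moved more than other genes under that setting. KO against WT at stage III, 10 in edgeR, gave 2 with library totals, 20 with DESeq2, 5 with limma voom and quality weights, 0 with only the groups compared and 0 without KO stage III replicates 1 and 3. WT stage IV against III, 20 in edgeR, gave 39 with DESeq2, 59 with weighted voom, 56 with only the groups compared, 36 with the preparation block and 52 without those 2 libraries. KO stage IV against II, 15 in edgeR, gave 27 with library totals, 26 with DESeq2, 59 with weighted voom, 31 with only the groups compared, 27 with the preparation block and 46 without the 2 libraries. Where edgeR called 0, weighted voom gave 20 in KO against WT at stage II, 1 at stage IV and 25 in WT stage III against II. That last comparison gave 1 with upper-quartile scaling, size factors, library totals, DESeq2, only the groups compared, and without the 2 libraries. The interaction of stage III minus II gave 2 with no filter, 1 with DESeq2 and 1 with weighted voom. WT stage IV against II stayed between 55 and 69 under these alternatives. The causes were not tested.

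With the replicate number as a block, the counts were 57 for WT stage IV against II, 25 for WT stage IV against III, 18 for KO stage IV against II and 14 (13 higher, 1 lower) for KO against WT at stage III, and 0 in the other comparisons. Between WT stages IV and II, where not all correlations were over 0.1, each library still correlated best with its own number in 3 of 3 cases.

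Leaving out each library in turn gave 0 to 45 for KO against WT at stage III, 1 to 42 for WT stage IV against III, 32 to 60 for WT stage IV against II, 2 to 33 for KO stage IV against II, 0 to 1 for WT stage III against II and 0 to 40 for the interaction of stage III minus II. It gave 0 throughout for KO against WT at stages II and IV and for the other interaction. Of 149 log2 fold changes of named members, 88 kept their sign and lost no call under any alternative run, and 24, none of them called, changed sign under at least 1. With 3 libraries per group the counts move with the libraries that share the estimate of the spread, as the values above show. At a few CPM, as in Rps6 (2.38 to 6.62 in WT stages II and IV), counting error adds more than in abundant members.

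Values of changed sign reached -0.24 and 0.23, both in Rps27l. The within-group SD of the median member was 0.21 on the log2 CPM scale. Leaving out single libraries gave, in KO against WT at stage II, -0.060 to 0.056 for Rpl36al, -0.013 to 0.11 for Rpl7l1 and -0.14 to 0.049 for Rps27rt. At stage III it gave -0.0010 to 0.46 for Rpl22, -0.052 to 0.24 for Rpl7l1, -0.072 to 0.31 for Rplp2 and -0.080 to 0.53 for Rpsa. At stage IV it gave -0.036 to 0.25 for Rpl22, -0.041 to 0.099 for Rpl7l1, -0.044 to 0.20 for Rplp1, -0.037 to 0.23 for Rplp2 and -0.027 to 0.46 for Rps6. In WT stage III against II the ranges were -0.30 to 0.0065 for Rpl22l1, -0.31 to 0.23 for Rps27l and -0.18 to 0.024 for Rps27rt. In WT stage IV against III they were -0.56 to 0.066 for Rps27l and -0.30 to 0.19 for Rps6, and in KO stage IV against II -0.19 to 0.046 for Rpl22l1. The interactions gave -0.097 to 0.20 for Rpl7l1 (stage III minus II), and -0.083 to 0.078 for Rpl7l1 and -0.24 to 0.35 for Rps27l (stage IV minus II). Without KO stage III replicates 1 and 3, KO against WT at stage III was -0.056 for Rpl22, -0.18 for Rpl7l1, -0.025 for Rplp1, -0.090 for Rplp2, -0.075 for Rps27rt and -0.10 for Rpsa, and the interaction of stage III minus II was -0.20 for Rpl7l1 and -0.18 for Rps27l. Library totals gave -0.0651 and -0.0856 for Rpl7l1 in these 2 comparisons. No filter gave 0.0088 for Rpl36al in KO against WT at stage II, 0.030 for Rps27l in WT stage III against II and -0.022 for Rpl7l1 in the interaction of stage IV minus II, where weighted voom gave -0.10 for Rps27l.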
